A study of Drosophila melanogaster with 2 samples.

Results

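The regions described here are strong peaks of chromatin immunoprecipitation followed by sequencing (ChIP-seq) that only 1 of 2 replicates placed among its strongest. The 2 samples are whole Drosophila melanogaster embryos of both sexes, 0 to 24 h old, from a transgenic line in which CG13123 carries green fluorescent protein (eGFP) at its C terminus. The precipitation used an antibody against GFP, and the samples, named biological replicates 2 and 3 in the labels, are 1 library each. Members were chosen by their signal: from each replicate's own relaxed list as many peaks of highest signal were taken as a list thresholded on reproducibility holds, here called its strong peaks, and a strong peak was kept if no strong summit of the other replicate lay within 500 bp. This left 659 peaks of replicate 2 only, 24.4% of its strong peaks, and 656 of replicate 3 only, 24.3%, or 1315 in all among 60000 relaxed peaks. The remaining 2045 peaks of replicate 2 and 2048 of replicate 3 are called shared strong peaks below. These percentages follow from the rule and are no finding. The cell types of the embryo cannot be told apart, and neither the control nor a precipitation from flies without the tag was analysed here.

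A relaxed list holds peaks and background alike. The irreproducible discovery rate (IDR) compares the ranks of peaks in such lists between replicates, and it gave the thresholded list. That list belongs to both replicates together and holds peaks with a signal of 75.5 or more. An entry in it does not mean that both replicates list the peak. Binding sites of chromatin proteins in flies often lie at promoters, the stretches around transcription start sites (TSSs), or at enhancers in introns and between genes. A site near the lower end of a ranked list can fall in or out of it with a small change of signal. A site that is high in 1 list and has no entry in the other is a different case, and both kinds are described below.

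The summit windows of 7 members are shown because they include several of the strongest members missing from the other replicate's list and the words counted further on. Each runs 100 bases to each side of the summit on the plus strand of dm6, read from the RefSeq Release 6 genome, and overlaps no annotated UTR. Capitals mark, on either strand, TATAAA of the TATA box, the word TGATAA read by GATA factors and the GAGAG of GAGA factor. They also mark ACAGTG as well as runs of A or T in the form of AAAAAAAA, and finally TGGCGC with its longer form GGTGGCGC. Ugt35D1 (chr3R:31395331-31395531), Etfb (chr3R:29802962-29803162) and dco (chr3R:31061421-31061621) are promoter peaks of replicate 2 only. Dhc64C (chr3L:4824857-4825057), Abd-B (chr3R:16958127-16958327) and CG8745 (chr3L:13862477-13862677) are intron peaks of replicate 3 only, and CG7785 (chr3R:18021204-18021404) is a promoter peak of the same set.
Ugt35D1: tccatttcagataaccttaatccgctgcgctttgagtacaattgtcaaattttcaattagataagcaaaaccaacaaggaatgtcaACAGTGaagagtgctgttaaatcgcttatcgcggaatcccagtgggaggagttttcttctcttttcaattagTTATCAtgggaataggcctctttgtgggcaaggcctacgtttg
Etfb: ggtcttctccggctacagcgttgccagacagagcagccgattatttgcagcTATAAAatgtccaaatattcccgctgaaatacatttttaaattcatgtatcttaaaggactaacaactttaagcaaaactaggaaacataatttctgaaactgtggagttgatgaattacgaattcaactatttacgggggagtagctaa
dco: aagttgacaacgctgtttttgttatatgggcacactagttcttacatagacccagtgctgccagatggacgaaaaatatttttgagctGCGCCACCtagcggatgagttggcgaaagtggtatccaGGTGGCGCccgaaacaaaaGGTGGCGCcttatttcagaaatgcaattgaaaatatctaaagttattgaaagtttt
Dhc64C: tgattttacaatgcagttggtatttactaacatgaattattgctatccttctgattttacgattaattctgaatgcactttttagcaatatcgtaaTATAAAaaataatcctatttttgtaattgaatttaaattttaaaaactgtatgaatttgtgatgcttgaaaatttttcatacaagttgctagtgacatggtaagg
Abd-B: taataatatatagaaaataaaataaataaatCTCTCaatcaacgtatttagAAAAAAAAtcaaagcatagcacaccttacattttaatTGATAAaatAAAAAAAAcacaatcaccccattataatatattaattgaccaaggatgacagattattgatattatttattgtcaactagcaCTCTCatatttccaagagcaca
CG8745: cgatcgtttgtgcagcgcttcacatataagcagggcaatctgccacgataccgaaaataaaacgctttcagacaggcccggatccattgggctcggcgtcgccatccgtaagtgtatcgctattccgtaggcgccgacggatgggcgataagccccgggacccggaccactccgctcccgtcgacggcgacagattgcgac
CG7785: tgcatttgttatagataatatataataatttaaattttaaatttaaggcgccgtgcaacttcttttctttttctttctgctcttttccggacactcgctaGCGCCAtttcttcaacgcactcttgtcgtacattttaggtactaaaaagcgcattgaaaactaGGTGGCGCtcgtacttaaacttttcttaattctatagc
The windows have little in common. GC content was 25.4% at Dhc64C and 23.9% at Abd-B, but 59.2% at CG8745, which holds none of the words. The dco window holds GGTGGCGC 3 times, counting both strands, and the CG7785 window holds it once. These letters lie within the consensus of the insulator protein CTCF, and the word was chosen after the windows had been read. It was in 8 of 659 windows of replicate 2 only (1.21%), 10 of 656 of replicate 3 only (1.52%), 1.27% and 1.32% of shared windows of replicates 2 and 3, and 0.673% and 0.677% of their relaxed windows. With shorter lists of strong peaks the share in replicate 2 only was 3.06%, and with 50 bases to each side of the summit 0.455%, so these few windows give no stable share. A match is only a description of letters.

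Most members sat low in their own list, and most were listed below the limit in the other. Members were picked by these ranks, so their low rank and signal follow from the rule and are no finding. The signal, the authors' own value per peak on a scale not given in the sources used here, was 46.3 to 94.5 with a median of 53.9 in replicate 2 only, against 76.6 for shared peaks of that replicate. In replicate 3 only it was 33.4 to 186 with a median of 38.4, against 55.8 for shared peaks. Replicate 2's values run higher throughout: over the 2045 shared peaks the median log2 ratio of replicate 2 to replicate 3 was 0.46. The median rank was 2090 for members of replicate 2 only and 2113.5 for those of replicate 3 only. At the limit, the last peak kept and the first left out had signals of 46.2679 and 46.2530 in replicate 2 and of 33.3504 and 33.3470 in replicate 3. The largest summit distance just inside the 500 bp limit was 495 bp in both replicates, and the smallest just outside it 535 bp for replicate 2 and 526 bp for replicate 3.

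A relaxed summit of the other replicate lay within 500 bp of 618 of the 659 members of replicate 2 only (93.8%, 95% Wilson interval 91.7 to 95.4%). For replicate 3 only it was 612 of 656 (93.3%). All intervals on shares here cover counting error only. The median rank there was 4291 for peaks of replicate 2 only and 4200.5 for peaks of replicate 3 only. In the other list the stretch below the limit, as long again as that of the strong peaks, held 396 (60.1%) members of replicate 2 only and 420 (64.0%) of replicate 3 only. The other replicate's signal was within 2-fold of its value at the limit for 513 (77.8%) and 550 (83.8%). Ranks beyond 10000 were given to 98 members of replicate 2 only and 64 of replicate 3 only. For 47 members of replicate 2 only and 54 of replicate 3 only, a strong summit of the other replicate lay between 501 and 1000 bp away.

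**Figure D1:**
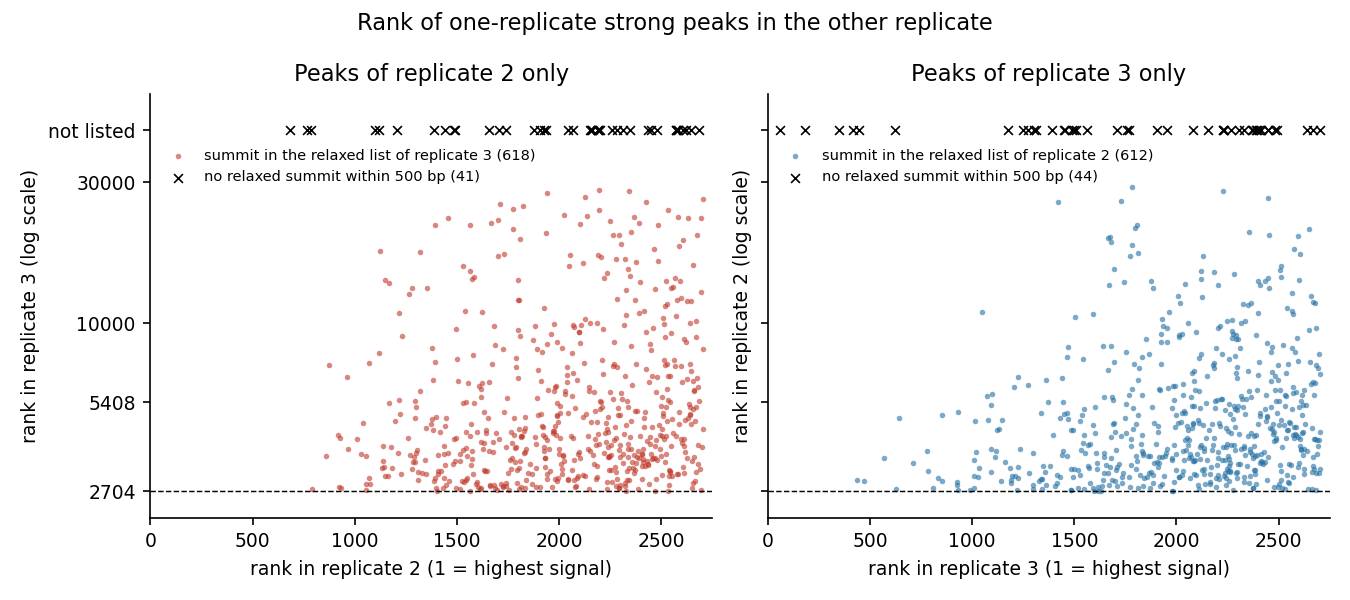
Rank of each member in its own replicate (horizontal axis, 1 is the highest signal) against its rank in the other replicate's relaxed list (vertical axis, log scale), for peaks of replicate 2 only at left and replicate 3 only at right. The dashed line is the limit of the strong peaks, the points crowd just above it, and crosses mark the 41 and 44 members with no relaxed summit of the other replicate within 500 bp.

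The IDR list comes from both replicates together and is not independent of either. It had a summit within 500 bp of 371 members of replicate 2 only (56.3%, 52.5 to 60.0%), where all strong peaks of that replicate gave 88.7%. It had one near 294 members of replicate 3 only (44.8%, 41.1 to 48.6%), where all strong peaks gave 85.9%. Shared strong peaks gave 99.1% in either replicate. The IDR list had a summit near 4 of 41 members of replicate 2 only that replicate 3 does not list. For replicate 3 only it was 2 of 44. No peak of the IDR list had a signal under 75.5, and replicate 2's values run higher than replicate 3's. Whether this has a part in the difference between the 2 sets was not tested. The relaxed list of both replicates together, called the joint list here, had no summit within 500 bp of 18 members of replicate 2 only and 26 of replicate 3 only. Over all strong peaks that share was 1.15% in replicate 2 and 1.44% in replicate 3. Where all 3 lists had a peak, the joint signal was close to the sum of the replicates' signals. The median ratio to that sum was 0.997 for members of replicate 2 only, 0.998 for those of replicate 3 only and 1.00 for shared peaks.

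The members with no relaxed summit of the other replicate within 500 bp numbered 41 in replicate 2 only and 44 in replicate 3 only. These are 6.22% (4.62 to 8.33%) and 6.71% (5.03 to 8.88%) of the sets, and 1.52% and 1.63% of all strong peaks of each replicate, which the rule fixes since every such peak is a member. They were not all weak. Their signal was 46.4 to 94.5 (median 52.9) in replicate 2 only and 33.4 to 186 (median 40.4) in replicate 3 only, and they made up 3 of the 10 strongest members of replicate 2 only and 6 of the 10 of replicate 3 only. Promoters held 29 of the 41 and 26 of the 44, where they held 50.8% and 53.7% of the whole sets. Of shared strong peaks they held 59.3% and 59.5%, and the counts of absent members are small. A summit of the other replicate lay 501 to 1000 bp away for 23 of the 41 and 17 of the 44.

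Many of these peaks were missing from the joint list as well, although that list reaches down to a signal of 19.3. They were 14 of the 41 in replicate 2 only, with own signals of 46.8 to 94.5 and a median of 64.2. Of the 44 of replicate 3 only they were 21, with 33.4 to 90.4 and a median of 45.4. The median distance to the nearest joint summit was 3204 bp and 3272 bp in the 2 sets, and the smallest 539 bp and 559 bp. It was beyond 1000 bp for 8 of the 14 and 20 of the 21. Why a peak of such signal has no joint entry was not tested.

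In replicate 2 only the strongest of them lay at the promoter shared by Ugt35D1, which encodes a UDP-glycosyltransferase, and Gcn2, a kinase that phosphorylates the initiation factor eIF2. Its signal was 94.5 at rank 682, the nearest summit of replicate 3 was 9251 bp away and the nearest joint summit 6443 bp. The intron peak in tsr, the gene of the actin-severing protein cofilin, had 89.2 (chr2R:24045167-24045566), with a replicate 3 summit 724 bp away. The promoter of Etfb, a subunit of the mitochondrial electron transfer flavoprotein, had 88.3 with the nearest replicate 3 summit at 3492 bp. CG5805 had 74.8, the promoter shared by mTor, the growth-controlling kinase, and Vha68-1, a vacuolar ATPase subunit, had 74.0, and Girdin, an actin-binding protein, had 71.1. The other such peaks among the 10 strongest absent from replicate 3 were at CG3740 (64.4) and in an intron of trx, the Trithorax histone methyltransferase (64.1). Those assigned to CG11362 (66.3) and Pde11 (65.2) did have joint peaks, of 72.2 and 78.8.

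In replicate 3 only the dynein heavy chain gene Dhc64C held an intron peak with a signal of 90.4 at rank 347, 47982 bp from the nearest summit of replicate 2 and 27870 bp from the nearest joint summit. The interval was 133 bp wide, where 653 of the 656 members of this set and 1822 of the 2048 shared peaks of replicate 3 were 390 bp wide. CG8745 had 84.4, with the nearest summit of replicate 2 at 3114 bp. RpL14, a protein of the large ribosomal subunit, had 82.8, with the nearest summit of replicate 2 at 3271 bp. Neither had a joint peak. The RpL14 summit also lies within 500 bp of the TSS of Nelf-E, a subunit of a complex that pauses RNA polymerase. Sid had 52.3, AdamTS-B 51.0 and CAP 50.5, also with no joint peak. The CAP summit lay 502 bp from a summit of replicate 2, just outside the 500 bp limit. CG7785 had 49.8 and a joint peak of 60.5.

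The 2 strongest members of replicate 3 only were of another kind. CG5098 (chr2R:18095146-18095377, 170 bp from the TSS) had a signal of 186 at rank 61, and PolD2, a subunit of DNA polymerase delta (chr3L:1775447-1775588, 70 bp from the TSS), had 117 at rank 184. Their intervals, 232 and 142 bp, were also narrower than 390 bp. Neither had a relaxed summit of replicate 2 within 500 bp; the nearest lay 540 bp from the CG5098 summit and 18771 bp from that of PolD2. Yet the joint list had both, with signals of 386 and 286, which exceed replicate 3's own by 199.5 and 168. Both differences are above 46.3, the lowest signal among replicate 2's strong peaks. Such a difference, at or over the other replicate's limit, was found at 2 of the 44 absent members of replicate 3 only (4.55%). It was found at 2 of the 41 of replicate 2 only (4.88%). Among members that the other replicate does list, it was found at 39 of 612 (6.37%) and 34 of 618 (5.50%), so it was no more frequent at absent members. At the absent members with a joint peak the median difference was 7.16 for replicate 2 only and 9.63 for replicate 3 only. The lists carry no read coverage, so the signal of replicate 2 at these promoters is not known here.

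**Figure D2:**
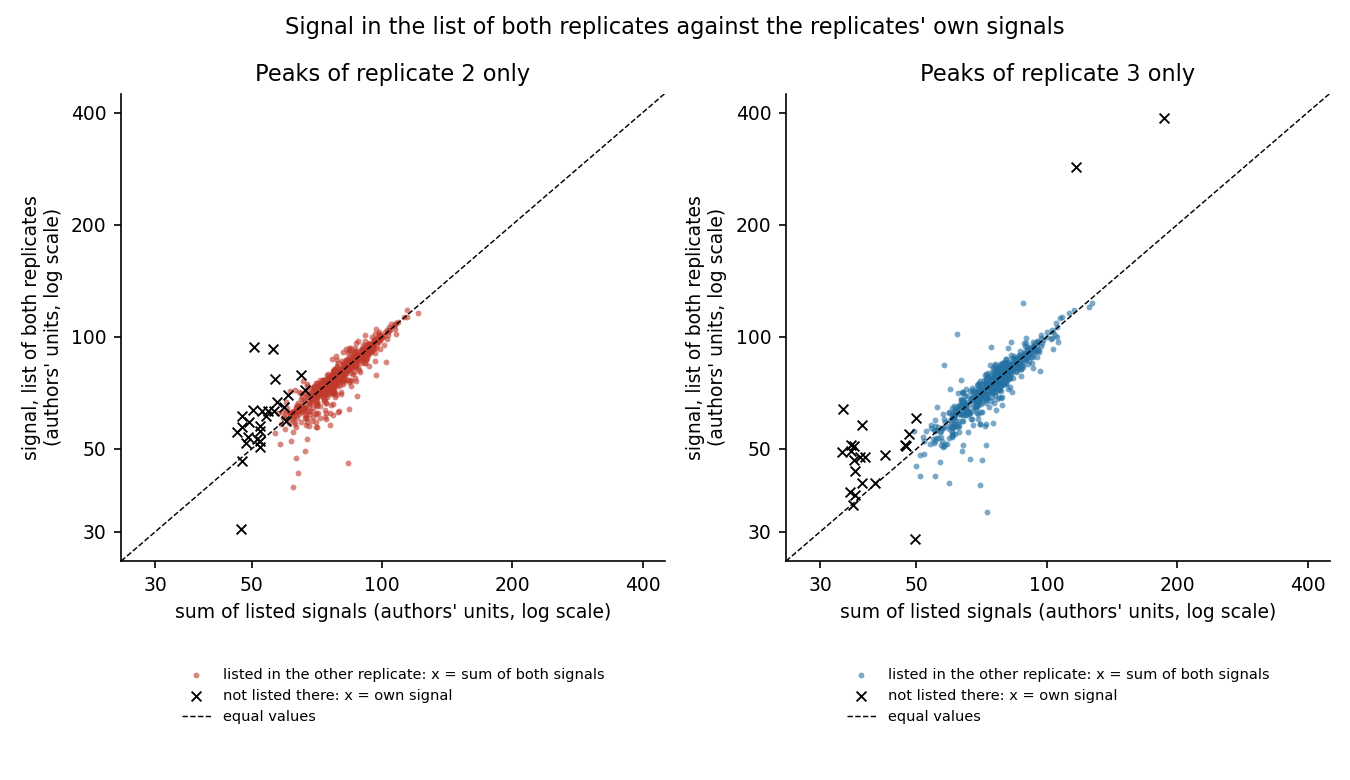
Signal in the joint list (vertical axis) against the sum of the signals listed by the replicates (horizontal axis), both in the authors' units on log scales, for peaks of replicate 2 only at left and replicate 3 only at right. Coloured points, listed in both replicates, follow the dashed line of equal values, and crosses, plotted at their own signal because the other replicate lists no summit, include CG5098 and PolD2 far above it at 386 and 286.

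Both sets lay mostly at promoters and in introns. Summits no more than 500 bp from an annotated TSS were classed as promoter. Promoters held 335 members of replicate 2 only (50.8%, 47.0 to 54.6%) and 352 of replicate 3 only (53.7%, 49.8 to 57.4%). Shared strong peaks gave 59.3% (57.1 to 61.4%) in replicate 2 and 59.5% (57.4 to 61.6%) in replicate 3, and the relaxed lists 31.0% and 28.2%. Since members rank low, both kinds of peak were also compared within the lower-ranked of the strong peaks, split at the middle rank, a comparison chosen after seeing the data. There promoters held 50.5% of members against 55.1% of shared peaks in replicate 2, and 54.0% against 54.8% in replicate 3. The intervals overlap in both replicates at these ranks, and promoter shares by GC content are given below. No test was possible, since each side is 1 library and peaks are not replicates.

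Introns held 232 members of replicate 2 only (35.2%) and 216 of replicate 3 only (32.9%), against 28.3% and 28.1% of shared peaks. Among the lower-ranked strong peaks introns held 35.5% of members against 30.5% of shared peaks in replicate 2. In replicate 3 it was 32.8% against 31.8%, and the intervals overlap in both replicates. Intergenic sequence held 69 (10.5%) and 76 (11.6%), against 10.3% and 10.5% of shared peaks. Coding sequence away from promoters held 1 member in each set (0.152%), against 0.147% and 0.244% of shared peaks. It holds 6.10% and 4.48% of the relaxed lists. The remaining members lay in 5' UTRs (8 and 3), 3' UTRs (7 and 5) and noncoding exons (7 and 3). The gene with the nearest TSS was protein coding for 578 members of replicate 2 only and 575 of replicate 3 only, 87.7% in each set, against 88.8% and 88.9% of shared peaks. It was an ncRNA for 75 and 71, a tRNA for 3 and 6, and a snoRNA for 2 and 0. Transposable elements held 2 members of replicate 2 only and 0 of replicate 3 only.

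Arm 2R held a larger share of replicate 2 only than of the other groups. It carried 159 of 659 members (24.1%, 21.0 to 27.5%), or 6.29 per Mb, against 17.8% (16.2 to 19.5%) of shared peaks and 17.6% of the relaxed list. It carried 112 members of replicate 3 only (17.1%, 14.4 to 20.1%), or 4.43 per Mb, against 17.9% of shared peaks. The interval of replicate 2 only does not reach the shared share. Among the lower-ranked strong peaks the share on 2R was 23.6% of members against 17.5% of shared peaks in replicate 2, and 17.8% against 17.7% in replicate 3. Among promoter peaks of replicate 2 it was 27.2% of members against 18.8% of shared peaks, and among other peaks 21.0% against 16.3%. With 2 times as many peaks taken from each replicate, 2R held 20.2% of the members of replicate 2 only and 17.9% of its shared peaks.

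On the other arms the difference was smaller in percentage points. The X held 87 members of replicate 2 only (13.2%) and 112 of replicate 3 only (17.1%), against 16.7% of shared peaks in either replicate. Arm 2L held 16.5% and 18.4% against 20.2% and 20.1%, 3L 21.9% and 23.2% against 20.8% in both, and 3R 23.4% and 23.5% against 24.2% and 24.3%. The intervals of replicate 2 only on X, 2L and chromosome 4 do not reach the shared shares either, nor does that of replicate 3 only on chromosome 4. Among the lower-ranked strong peaks the X held 13.3% of members and 18.5% of shared peaks of replicate 2, but with a list of highest peaks shorter by a factor of 2 it held 17.3% of members and 15.0% of shared peaks, so that the order turned. Chromosome 4 held 6 members of replicate 2 only (0.910%) and 5 of replicate 3 only (0.762%). It held 6 shared peaks (0.293%) in either replicate, and 2.00% and 1.77% of the relaxed lists. The 5 of replicate 3 only include peaks at eIF4G1, ATPsynbeta and PlexA.

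**Figure D3:**
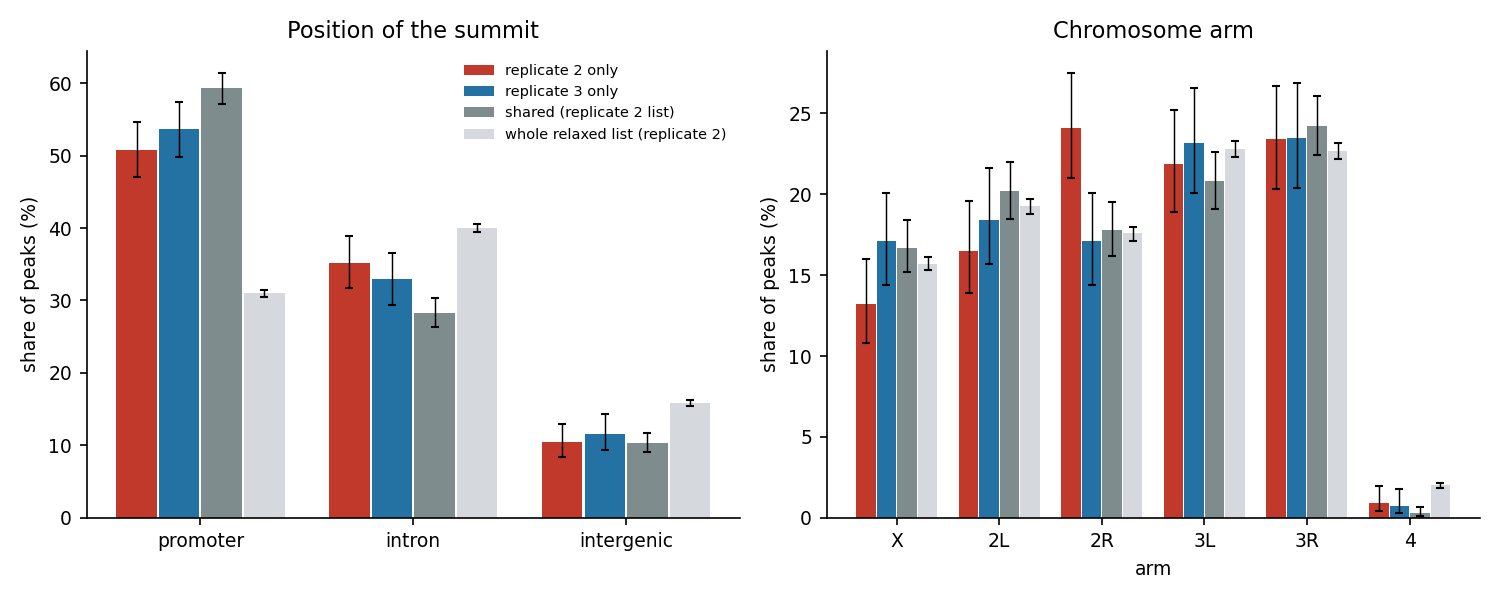
Share of peaks by position of the summit (left) and by chromosome arm (right), in percent, with bars for replicate 2 only, replicate 3 only, shared strong peaks and the whole relaxed list, the last 2 from replicate 2. Error bars are 95% Wilson intervals, and on 2R the bar of replicate 2 only, at 24.1%, stands above the others.

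Windows of replicate 2 only were also richer in G and C. With 100 bases to each side of the summit, median GC content was 37.3% (95% interval from order statistics 36.8 to 38.3%) for replicate 2 only and 34.8% (34.8 to 35.3%) for shared peaks of that replicate. For replicate 3 only it was 34.8% (34.3 to 35.3%), and for shared peaks of that replicate 34.8%. The relaxed lists stood at 38.8% and 37.8%. Among the lower-ranked strong peaks the medians were 37.3% for members and 35.3% for shared peaks in replicate 2, and 34.8% and 35.8% in replicate 3. Without arm 2R, members of replicate 2 only had a median of 36.8% and shared peaks 34.8%.

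The strong peaks were put into 4 groups by GC content, cut at the quartiles of replicate 2's shared peaks. The share of replicate 2's strong peaks that were members was 18.5% (15.7 to 21.6%) in the group lowest in GC, then 21.0%, 24.6% and 32.5% (29.1 to 36.0%) in the highest. For replicate 3 it was 23.8%, 24.8%, 25.5% and 22.9%. The shares of replicate 2 stood in the order of GC content and those of replicate 3 did not. In these groups promoters held 48.4%, 47.7%, 46.5% and 57.0% of members of replicate 2 only. Its shared peaks gave 66.7%, 61.8%, 52.8% and 55.4%. For replicate 3 only it was 51.4%, 48.7%, 54.1% and 61.4%, against 65.2%, 59.8%, 56.8% and 55.3%. The intervals are apart in the group lowest in GC in both replicates and in the next group of replicate 2, and overlap elsewhere. In the group highest in GC, arm 2R held 29.8% (24.3 to 35.9%) of members of replicate 2 only. It held 19.8% (16.5 to 23.6%) of shared peaks of replicate 2 there. In the other groups the 2R share of members was also the higher one, but the intervals overlap. Among the 2045 shared peaks, GC content and the log2 ratio of the replicates' signals had Spearman's rho 0.08 and Pearson's r 0.07. These are descriptions across peaks of 2 libraries, and their read depth is unknown. Whether base composition or depth has a part in which peaks only replicate 2 ranked high was not tested.

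**Figure D4:**
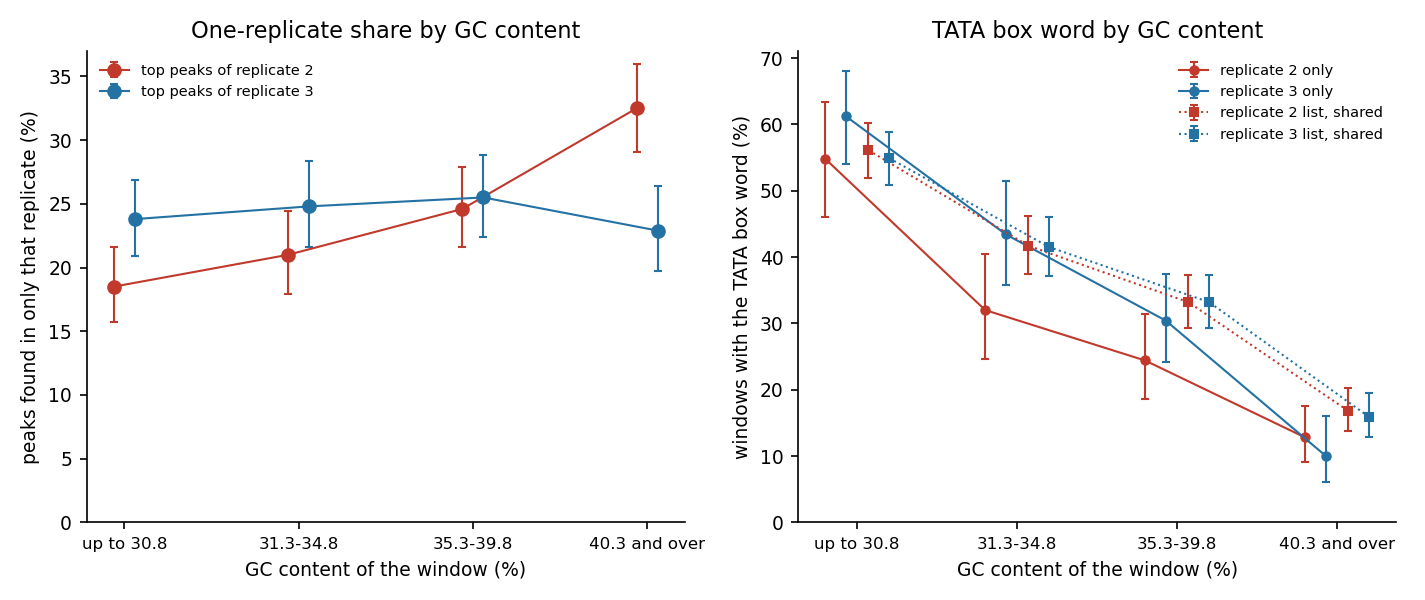
Left, the share of each replicate's strong peaks that are found in only that replicate, by GC content of the summit window; right, the share of windows with TATAAA in the same groups. Circles on the right are members, squares are shared strong peaks, bars are 95% Wilson intervals, and the left panel reaches 32.5% for replicate 2 in the group highest in GC.

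Of 12 words searched on both strands, TATAAA, the letters of the TATA box, differed most between the sets in percentage points. It was in 181 windows of replicate 2 only (27.5%, 24.2 to 31.0%), against 37.4% of shared windows and 28.2% of relaxed windows. It was in 247 windows of replicate 3 only (37.7%, 34.0 to 41.4%), against 37.3% of shared and 29.7% of relaxed windows. The word holds only A and T, and its share tracks GC content. In the 4 GC groups it was in 54.8%, 32.0%, 24.4% and 12.8% of members of replicate 2 only, against 56.1%, 41.7%, 33.2% and 16.8% of shared windows. Intervals overlap in each GC group, and the member share was the lower one in all 4.

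CACACA, a dinucleotide repeat, was in 134 windows of replicate 2 only (20.3%, 17.4 to 23.6%) and in 92 of replicate 3 only (14.0%), against 14.9% and 14.6% of shared and 17.1% and 16.8% of relaxed windows. Its share rises with GC content. From the lowest GC group to the highest it was in 8.06%, 19.5%, 23.3% and 25.1% of members of replicate 2 only. Shared windows of replicate 2 gave 7.13%, 13.5%, 15.6% and 24.1%. Intervals overlap in each GC group, and the member share was the higher one in each. TATCGATA, which DREF and BEAF-32 read, was in 35 (5.31%) and 27 (4.12%), against 4.40% and 4.20% of shared and 1.96% and 1.89% of relaxed windows. ACAGTG was in 16.5% and 16.3%, against 20.5% and 19.6% of shared and 10.8% and 10.6% of relaxed windows. ACACTG, whose reverse complement shares CAGTG with it, was in 19.1% and 16.8%, against 20.0% and 19.7% of shared and 10.8% and 10.9% of relaxed windows. Members were thus nearer to shared peaks than to the relaxed list for these 3 words. GAGAG, read by GAGA factor, was in 23.2% and 20.6%, against 22.8% and 23.2% of shared and 22.3% and 21.2% of relaxed windows. TGATAA, read by GATA factors, was in 15.6% and 16.9%, against 17.8% in both shared sets and 15.0% in both relaxed lists. The run AAAAAAAA was in 13.4% and 17.2%, against 13.5% and 14.9% of shared and 15.7% and 16.5% of relaxed windows. TAATTA, the core read by many homeodomain proteins, was in 15.0% and 16.2%, against 17.2% and 18.3% of shared and 14.3% and 15.5% of relaxed windows. CAGCTG was in 11.2% and 8.69%, against 9.44% and 9.57% of shared and 8.73% and 7.78% of relaxed windows. CAGCAG was in 11.4% and 9.60%, against 8.90% and 9.13% of shared and 13.0% and 11.8% of relaxed windows. CAGGTAG, read by the early activator Zelda, was in 0.759% and 0.762%, against 0.880% and 0.781% of shared and 0.873% and 0.963% of relaxed windows. TGGCGC, added after seeing the data and contained in GGTGGCGC, was in 7.89% and 9.60%, against 7.97% and 8.25% of shared and 8.01% and 7.23% of relaxed windows.

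The members were spread over many genes. The nearest TSS belonged to 612 different genes in replicate 2 only and 616 in replicate 3 only, which are 3.37% and 3.39% of 18164 annotated genes. Both sets named 64 of them, 10.5% of those of replicate 2 only and 10.4% of those of replicate 3 only. A further member of the same set lay within 10 kb for 118 (17.9%) and 109 (16.6%). Of the genes of replicate 2 only, 6 were nearest to 3 or more members. The leading one was psq, which encodes the GAGA-binding protein Pipsqueak, with 4 members and signals of 58.6, 55.6, 50.9 and 46.3. Replicate 3 ranked these 4 sites at 4782, 9977, 2843 and 26302, so they range from just below its limit to near the end of its list. CG32264 was nearest to 3 members, at 70.8, 58.3 and 50.4, and Hipk, a protein kinase gene, to 3, at 61.5, 57.9 and 46.7. Tlk, the Tousled-like kinase gene, was nearest to 3 of replicate 3 only, at 40.1, 37.4 and 33.8. Replicate 2 ranked the 3 Tlk sites at 9692, 7897 and 9542. A further 38 genes of that set had 2 members, among them the Hox gene Abd-B with 83.3 and 44.2 and pum, a translational repressor gene, with 62.2 and 46.8. The Abd-B intervals overlap, and both summits fall to the same peak of replicate 2, ranked 2965, so they are not clearly separate sites.

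The other strong members were listed by the other replicate. In replicate 2 only, the intron of Oda next to asRNA:CR46194 had 87.8 against 33.1 in replicate 3. The kinesin-like gene nod, active in chromosome segregation, had 84.1 against 28.4, and the promoter shared by Fsn, an F-box protein gene, and Dp, a partner of E2F, had 83.4 against 19.1. Cdk4, a cyclin-dependent kinase, had 81.9 against 25.7. Dpp10 had 81.7 against 32.8, dco, the casein kinase of the circadian clock, 81.2 against 26.1, and spidey 81.1 against 33.0. All 7 had an IDR summit within 500 bp. In replicate 3 only, Abd-B had 83.3 in replicate 3 against 43.9 in replicate 2, spri 80.8 against 44.1, Jupiter, a microtubule-associated protein, 73.0 against 39.8, and gukh 69.7 against 45.8. These 4 also had an IDR summit, and their replicate 2 signals were below 46.3, the lowest among its strong peaks.

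Genes were also counted by list, from 27 lists, to be read beside the shares over all genes, 3.37% for replicate 2 only, 3.39% for replicate 3 only and 9.43% for shared peaks of replicate 2. A gene counted if its TSS was the nearest one to at least 1 member, also where the summit lay outside the gene. Genes for cytoplasmic ribosomal proteins, the largest group among shared peaks, stood on either side of those shares. Of 92 such genes, 1 was nearest to a member of replicate 2 only (1.09%) and 5 to a member of replicate 3 only (5.43%), against 44 (47.8%) for shared peaks of replicate 2. All 6 of these members lay at promoters. They include RpS15Aa with a signal of 50.5 in replicate 2 and 28.5 in replicate 3. Beside RpL14, the set of replicate 3 only had RpL12 with 53.9 in replicate 3 and 38.6 in replicate 2, and RpS23 had 43.2 in replicate 3 and 35.7 in replicate 2. A gene can be nearest to both a member and a shared peak, as 144 of the genes of replicate 2 only and 154 of those of replicate 3 only were.

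Other housekeeping lists also lay on both sides of the shares over all genes. Mitochondrial ribosomal proteins gave 1 and 2 of 73, with mRpL48 at 49.7 in replicate 2 only and mRpL19 at 41.6 and mRpL13 at 38.7 in replicate 3 only. Proteasome subunits gave 1 (2.08%) and 4 (8.33%) of 48, where shared peaks gave 2, with Prosalpha7 at 50.5 in replicate 2 only and Prosalpha5 at 43.5, Rpn13 at 41.0 and Rpn11 at 35.2 in replicate 3 only. All 5 of these proteasome peaks lay at promoters. Translation factors gave 3 (5.66%) and 4 (7.55%) of 53: eEF1alpha1 (51.1), eIF5B (49.4) and eIF2D (47.5) in replicate 2 only, and eEF2 (57.4), eEF1alpha1 (45.0) and eIF4G1 (40.1) among those of replicate 3 only. The elongation factor gene eEF1alpha1 stood in both sets, with summits 57 and 61 bp from 2 different start sites of the gene. Oxidative phosphorylation gave 3 (3.57%) and 5 (5.95%) of 84, against 12 for shared peaks, with SdhB at 56.0 in replicate 2 only and ATPsynE at 43.8 in replicate 3 only. tRNA genes gave 3 and 6 of 295, snRNA and snoRNA genes 2 and 0 of 306, and histone genes 1 and 1 of 123, which was His3.3B in both sets. Heat shock genes and immune effectors gave 0 in both sets, of 21 and 16 genes, where shared peaks gave 6 and 1. Cuticle genes gave 1 and 0 of 121 and chemoreceptor genes 2 and 1 of 186. Shared peaks of replicate 2 gave 6 mitochondrial ribosomal protein genes, 7 translation factors, 12 tRNA genes and 8 snRNA and snoRNA genes. They gave 0 histone genes, 1 cuticle gene and 2 chemoreceptor genes.

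Nuclear receptors and ecdysone response genes, which carry the steroid hormone signal, gave 5 (26.3%) and 6 (31.6%) of 19, against 4 for shared peaks. Their 15 members, of which 2 lay at promoters, include introns of Hr3 at 62.9, ftz-f1 at 61.3 and Eip75B at 60.9 in replicate 2 only. The set of replicate 3 only includes the Hr78 promoter at 43.1 and introns of EcR, the ecdysone receptor, at 40.0 and of its coactivator tai at 37.8. Hox genes, which set segment identity, gave 3 and 3 of 8, against 2 for shared peaks. Replicate 2 only had Dfd (51.3), abd-A (51.1) and Abd-B (50.5), and replicate 3 only had Abd-B (83.3), Antp (37.5) and abd-A (36.0). Both abd-A peaks lay outside that gene, 4777 and 7918 bp from its nearest TSS. These lists are small, and gene length was not taken into account.

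Counts in 4 lists of signalling and axon guidance genes differed between the sets. Shared peaks of replicate 2 gave 5 of 17 for Notch and 6 of 16 for EGF and FGF receptor signalling. They gave 5 of 21 for Wnt, Hedgehog and Dpp signalling and 3 of 16 for axon guidance. The Notch pathway gave 4 and 1 of 17, with mam, the Notch coactivator, at 65.2, the N promoter at 58.5 and fng, which modifies Notch, at 56.8 in replicate 2 only, and an intron of N at 36.2 in replicate 3 only. EGF and FGF receptor signalling gave 4 and 1 of 16. The FGF receptor gene htl had 75.6 and the FGF ligand gene ths 63.0 in replicate 2 only. A peak of 70.9 in that set, assigned to sty, an inhibitor of the pathway, lay in an intron of eIF5B. It was 7869 bp from the sty TSS. In replicate 3 only an intron of sty had 40.7. Wnt, Hedgehog and Dpp signalling gave 1 and 3 of 21, with shn, a transcription factor of Dpp signalling, at 59.9 in replicate 2 only. Those of replicate 3 only were Dad, an inhibitor, at 45.6, the ligand gene Wnt4 at 43.6 and the receptor gene tkv at 41.1. Axon guidance gave 1 and 4 of 16, with trio at 65.7 in replicate 2 only and PlexA, a semaphorin receptor, at 49.0, the ligand gene NetA at 47.8 and Sema1a at 40.2 in replicate 3 only. With 16 to 21 genes a list and 1 library a side, these splits are counts and no test was made.

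Segmentation genes gave 3 and 2 of 26, namely bcd (76.8), slp1 (58.0) and hry (51.7) in replicate 2 only and ems (34.5) and wg (34.1) in replicate 3 only. The ems and wg peaks were intergenic, 14001 and 11055 bp from the TSS. Dorsoventral patterning gave rho at 55.2 and sog at 49.2, 1 of 15 in each set. Muscle and mesoderm genes gave 1 and 3 of 17, with zfh1 at 60.4 in replicate 2 only and Tm1 at 42.5, Mef2 at 39.3 and Act87E at 36.8 in replicate 3 only. Polycomb and Trithorax group genes, which keep genes silent or active, gave 4 and 1 of 29, against 9 for shared peaks. Beside trx, Su(z)2 had 62.6 and ph-d 54.0 in replicate 2 only, and Utx, a histone demethylase, had 38.8 in replicate 3 only. Architectural and promoter proteins gave 1, psq, and 2 of 16, Trl (46.3), which encodes GAGA factor, and BEAF-32 (36.4). DNA replication and cell cycle genes gave 3 and 1 of 31, with E2f1 (51.2), Mcm5 (49.4) and CycA (47.7) in replicate 2 only and E2f1 again (36.4) in replicate 3 only. Circadian clock genes gave 2 and 3 of 10, with dco at 81.2 and vri at 54.3 in replicate 2 only and cwo at 37.3, Clk at 35.5 and sgg at 34.9 in replicate 3 only. The Clk peak lay in an intron of CG32369, 8040 bp from the Clk TSS. GATA factors and partners gave ush (64.9) and grn (36.9), 1 of 7 in each set, and neural genes gave D (59.3) and none, of 18. Shared peaks of replicate 2 gave 4 of 26 segmentation, 4 of 15 dorsoventral, 7 of 17 muscle and mesoderm and 4 of 16 architectural genes. They also gave 6 of 31 DNA replication and cell cycle, 4 of 10 circadian, 2 of 7 GATA and 1 of 18 neural genes.

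**Figure D5:**
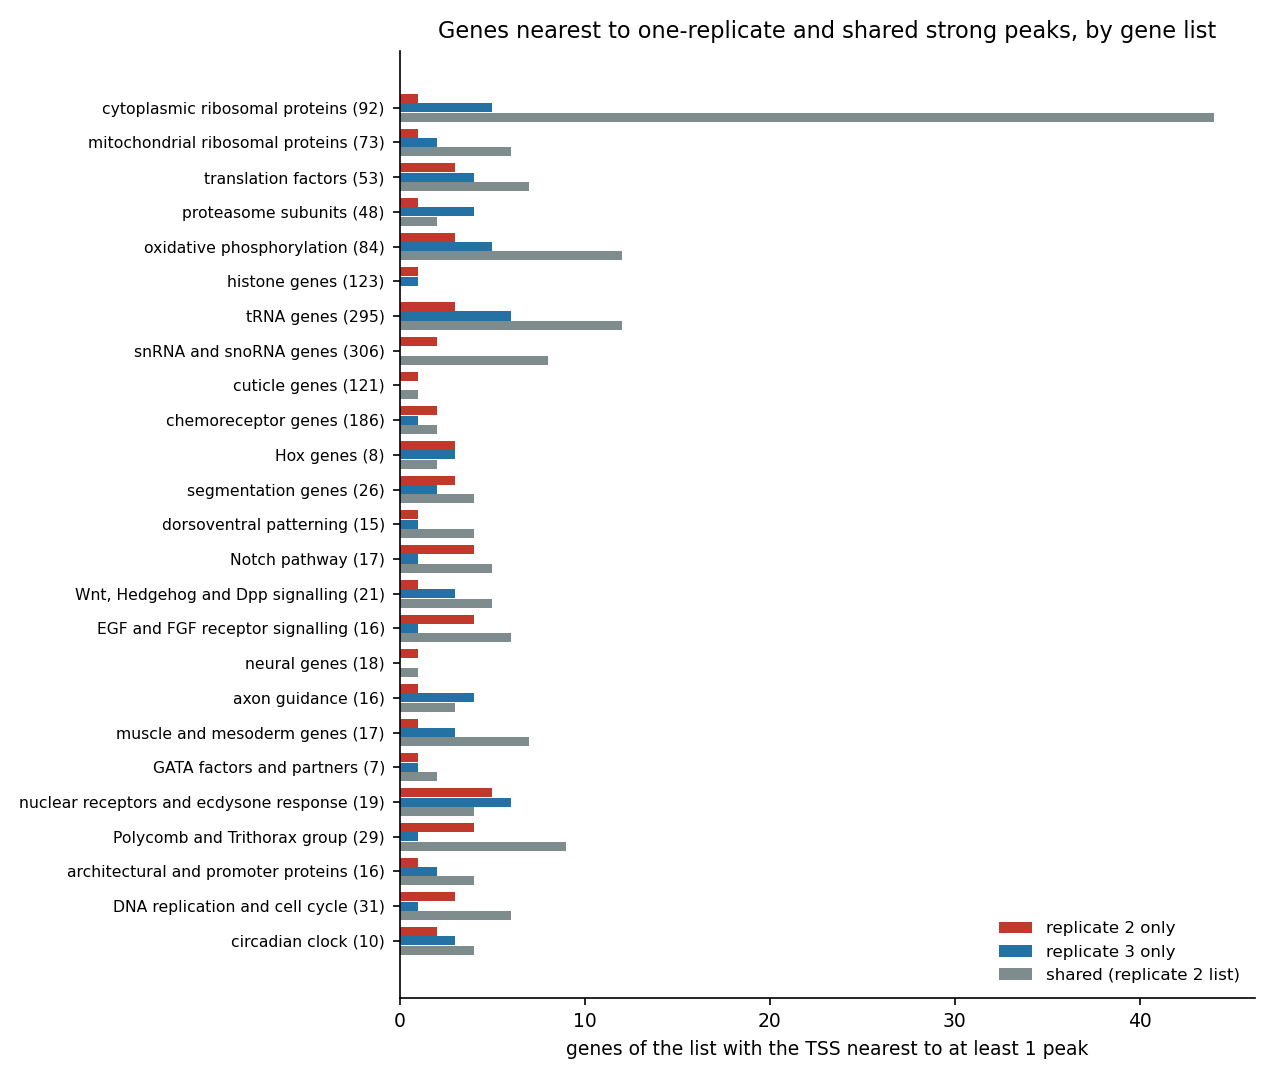
Number of genes of each list (horizontal axis) whose TSS is the nearest one to at least 1 peak of replicate 2 only, replicate 3 only or the shared strong peaks of replicate 2, with the list's size in parentheses. The longest bar is that of shared peaks at cytoplasmic ribosomal protein genes, 44 of 92, where the sets have 1 and 5.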

How the data were processed

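The data are peak lists of 2 ChIP-seq libraries (replicates 2 and 3, 1 group) of CG13123-GFP embryos, on dm6, with the dm3 lists as an alternative. Per the labels, chromatin was sonicated. The signal of each peak and its −log10 q-value were deposited by the authors; the scale of the signal, the IDR threshold, the aligner and the caller were not given in the sources used here. No read counts come with the lists, so depth is unknown and limits the precision of each rank. The signal ranked peaks, and the −log10 q-value deposited by the authors ranked them in 1 alternative. A summit was the start plus the offset in the file; coordinates are 1-based. Ensembl release 115 gave the genes, and the RefSeq Release 6 genome gave the bases of the 201 bp windows. The strong peaks were the 2704 of highest signal, and their lower-ranked part ran over ranks 1353 to 2704. Summits away from promoters took 1 class each, with a 5' UTR before coding sequence, then a 3' UTR, then other exons, and introns last. In the 27 gene lists, 4 symbols were matched by a RefSeq synonym and 2 stayed unmatched. For 1 gene that the naming rule picks, the result is not reported here.

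Python 3.11.15, pandas 2.3.3, scipy 1.17.1, numpy 2.4.6 and matplotlib 3.10.9 were used, and the functions were tested on simulated data. Shares carry 95% Wilson intervals. No test was run, since each side is 1 library. Named genes are, for each set, those nearest to the 10 members of highest signal, to the 10 highest with no relaxed summit of the other replicate and to the most members (3 genes), and up to 3 per list by signal. The members, lists and words were chosen with earlier results of these data known. The alternatives were other summit distances, lists of 1352 and 5408 peaks, other TSS windows and window lengths, overlap of intervals, ranking by q-value, the joint list in place of the other replicate, protein-coding TSSs only and the dm3 lists.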

Additional observations from a re-analysis of the deposited data

How the results depend on the processing

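Of 64 values that answer a comparison, recomputed under the alternatives, 37 stayed within their interval (counts within 1.5 times) and 27 moved; for these the cause was not tested. Values are given for replicate 2 only and then replicate 3 only. Set against the highest joint peaks in place of the other replicate, members numbered 306 and 381. With the shorter of the other list sizes, members were 21.7% and 20.9% of the strong peaks and the share with no relaxed summit of the other replicate was 2.04% and 3.90%; median GC content was 36.3% in replicate 2 only. With the longer size, members were 30.7% and 31.0%, promoters held 46.6% and 41.3%, absent members were 19.4% and 19.7%, 2R held 20.2% of replicate 2 only and median GC content was 36.3% in replicate 3 only. Absent members were 10.7% and 10.9% with a distance of 200 bp and 2.94% and 4.49% with 1000 bp, which the wider search itself makes smaller. Promoter shares were 38.4% and 38.3% with a TSS window of 200 bp and 60.4% and 62.2% with 1000 bp. Median GC content was 36.6% and 33.7% with 50 bp to each side and 39.2% and 37.4% with 200 bp.

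Arms other than 2R stayed within their interval in 45 of 50 values and words in 75 of 140. On the X, replicate 2 only held 17.3% with the shorter size. TATAAA was in 31.6% of members and 36.9% of shared windows of replicate 2 with the shorter size, and CACACA in 15.6% of members. The comparison at the lower-ranked strong peaks and the word TGGCGC with its longer form GGTGGCGC were chosen after seeing the data. Ranking by the lists' p-value column was not run, since it holds 1 constant. Leaving out a replicate was not run, since the rule needs both. No paired analysis was possible because the 2 libraries form 1 group.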
